A study of Mus musculus with 4 samples.

Results

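The genes described here are 9 members of the interferon response, taken by name from a table of 56883 genes: the RNA sensor *Ifih1*, the adaptor *Mavs*, the transcription factors *Irf3*, *Irf7*, *Irf9* and *Stat2*, and the interferon-induced effectors *Isg15*, *Bst2* and *Ifit1*. Loss of DNA methylation can induce such genes through transposon RNA, a response known as viral mimicry, and the question addressed was which of them were detected and whether they differed after *Dnmt1* deletion. All 9 were found in the table, each as 1 row. Their levels come from total RNA sequencing of tdTomato-positive cells sorted from the basal telencephalon of E14.5 embryos, with 2 control and 2 *Dnmt1* KO libraries. Control embryos were *Sst-Cre/tdTomato*, and *Dnmt1* KO embryos were *Sst-Cre/tdTomato/Dnmt1 loxP2*, so that both genotypes carried the Cre driver and the reporter and differed in the floxed *Dnmt1* alleles. Cre is expressed from the *Sst* locus and deletes *Dnmt1* in postmitotic somatostatin-positive cells. Mice were on a C57BL/6J background, cells of several embryos were pooled for each library, 50000 cells were pooled per genotype for RNA isolation, and the sex of the embryos was not distinguished. No treatment or infection was applied, and transposon RNA, DNA methylation and protein were not analysed here.

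In a cell that meets double-stranded RNA, IFIH1 (MDA5) and the related sensor RIG-I bind it and engage MAVS on mitochondria, which leads through the kinase TBK1 to phosphorylation of IRF3 and transcription of type I interferon. Secreted interferon binds the IFNAR receptor, and JAK kinases phosphorylate STAT2, which joins IRF9 in the complex ISGF3. This complex binds interferon-stimulated response elements in the promoters of effector genes such as *Isg15* and *Ifit1*, and also of *Irf7* and of several sensors, which amplifies the response. In the resting state the sensors, kinases, *Irf3* and the receptor chains are made constitutively. *Isg15*, *Bst2*, *Ifit1* and *Irf7* are among the genes that rise when the pathway is active, as several sensors also do.

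The promoters of the members are shown first, with their matches to the response element. The RefSeq promoter table of GRCm38.p6 held 10 promoters for the 9 genes, each of 250 bases before to 50 bases after the transcription start. The element was searched as a pair of GAAA tetramers with 2 bases between them, on either strand. It was found in 5 of the 9 genes, *Isg15*, *Bst2*, *Ifit1*, *Stat2* and *Ifih1*, and its letters were not in the windows of *Mavs*, *Irf3*, *Irf7* and *Irf9*. Of all 32851 promoters in the table, 3.44% held such a pair. The stretches that hold the pairs are shown 5′ to 3′ on the strand of the gene, with the pairs in capitals and up to 25 bases on each side.
*Isg15*: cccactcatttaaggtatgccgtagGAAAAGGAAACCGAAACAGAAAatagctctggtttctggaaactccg
*Bst2*: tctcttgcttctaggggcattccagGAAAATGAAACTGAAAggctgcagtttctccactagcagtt
*Ifit1*: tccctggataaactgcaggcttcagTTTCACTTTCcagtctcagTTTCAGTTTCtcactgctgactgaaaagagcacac
*Stat2*: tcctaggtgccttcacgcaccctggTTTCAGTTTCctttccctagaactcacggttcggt
*Ifih1*: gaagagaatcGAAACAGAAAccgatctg

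The *Isg15* stretch lies at chr4:156200850-156200921 on the minus strand of GRCm38.p6 and holds 3 overlapping pairs, the first starting 78 bases before the transcription start. *Bst2*, at chr8:71537562-71537627 on the minus strand, has 2 overlapping pairs from base -130, and *Ifit1*, at chr19:34640760-34640838 on the plus strand, has 2 separate pairs from bases -104 and -85. In *Stat2*, at chr10:128270251-128270310 on the plus strand, 1 pair starts at base -222. In *Ifih1*, at chr2:62646206-62646233 on the minus strand, 1 pair starts at base 33 after the transcription start. A gamma-activated site, searched as TTC and GAA with 3 bases between them, occurred in 8.30% of all promoters and once among the members, in *Bst2*, where it overlaps the first pair. CpG dinucleotides, the sites that DNMT1 methylates, numbered 22 in the *Stat2* window, 19 in *Mavs*, 18 in *Irf3*, 14 in *Ifih1* and 11 in *Bst2*. The windows of *Irf7*, *Isg15* and *Ifit1* held 7, 6 and 4, and those of *Irf9* held 9 and 1, against a median of 7 over all promoters and 21 over those of the genes tested below.

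The deposited values are normalized counts, whole reads divided by 1 size factor per library. Recovered reads ranged from 6970247 to 8376711 per library, and 3 reads, the upper limit that a count of 0 allows, correspond to 0.358 to 0.430 CPM in a single library (counts scaled to the library's total). This limit and the intervals on reads cover counting error only. The 14323 genes whose normalized count averaged 10 or more were tested with limma on log2(normalized count + 1), adjusted together by the Benjamini-Hochberg method, and those under 0.05 after adjustment are called higher or lower. Fold changes are on that scale, which understates the change of low genes. An exact permutation test of 1 gene cannot go below p = 0.333 with 2 libraries per genotype, so every adjusted p rests on a spread shared across genes by limma. The libraries of a genotype were processed separately from pooled embryos, and the p-values rest on the spread between libraries, not between embryos. Whether the libraries of a genotype came from independent pools is not settled by the sources.

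The labelled cell type was checked by marker lists. All 10 interneuron markers, *Sst* among them, were read in every library and rose in *Dnmt1* KO, with summed normalized counts of 18967 and 19259 in control and 28710 and 28879 in *Dnmt1* KO. Markers of other cells were present too and were lower in *Dnmt1* KO. The 13 microglia markers summed to 160 and 170 against 68.1 and 74.3, and 2 of the 5 tested fell. None of the 13 was at 0 in all libraries, while *P2ry12*, *Fcer1g*, *Trem2*, *Ptprc* and *Spi1* were at 0 in 1 or 2 of them. Of 14 vascular markers, 11 of the 13 tested fell (846 and 887 against 379 and 379), and all 8 tested of 12 blood markers fell (2617 and 2435 against 588 and 595). Radial glia markers (10148 and 10242 against 6024 and 6226) and pallial excitatory markers (2873 and 2923 against 1590 and 1415) were lower as well, with 6 and 7 of 8 falling and *Sox2* rising. Fewer cells of a type and less RNA per cell cannot be told apart in such sorted bulk samples.

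The targeted gene, *Dnmt1*, had a normalized count of 2238 and 2341 in control and of 2164 and 2210 in *Dnmt1* KO, and its log2 fold change was -0.066 (standard error, SE, 0.054) at an adjusted p of 0.461. The count covers the whole gene and does not separate transcripts that lack the floxed exons.

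Among the 9 genes, 5 were read in all 4 libraries (*Ifih1*, *Mavs*, *Irf3*, *Irf9* and *Stat2*), and 4 reached the mean of 10 needed for the test. None of the 4 rose, and *Irf3* fell. Of all 14323 genes tested, 17.3% were called, 8.3% higher and 8.99% lower in *Dnmt1* KO. Beside this background, 1 call among 4 genes is no result about the set. The effectors *Isg15*, *Bst2* and *Ifit1* had at most 2 reads in any library of either genotype. At an unadjusted p below 0.05 limma found 1 of the 4, again *Irf3*, as did edgeR and DESeq2 on the recovered reads. Limma put 4323 of all 14323 tested genes under this unadjusted threshold, 2115 higher and 2208 lower. Later limma counts at that threshold stand beside this share. No member was called higher by limma or edgeR, nor by DESeq2, which gave no adjusted p for the 5 low ones.

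**Figure D1:**
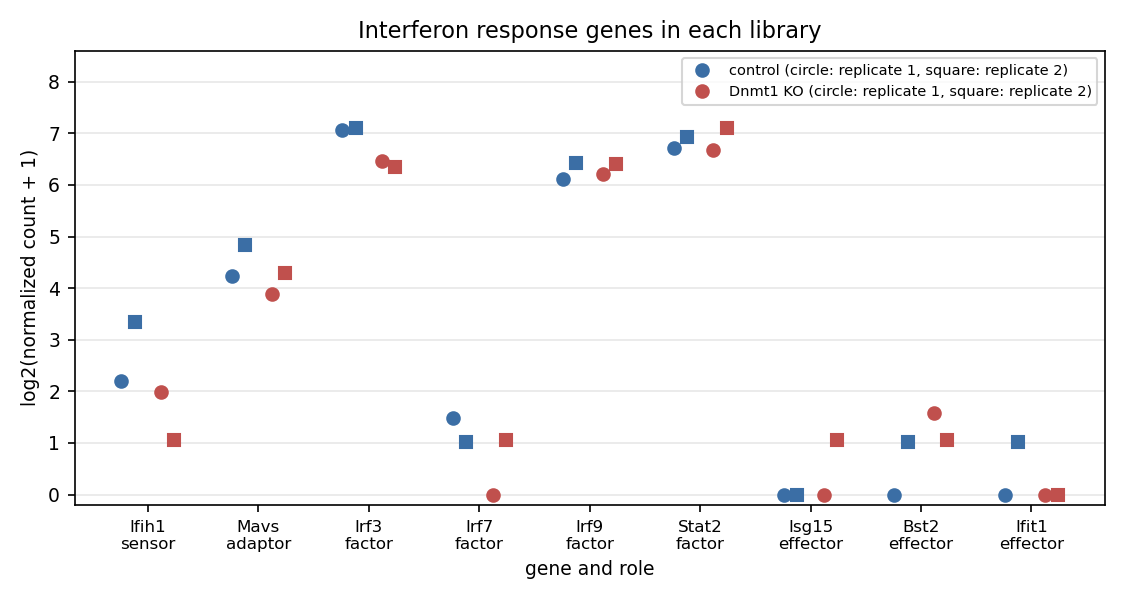
Log2(normalized count + 1) of the 9 genes in each library, by role, for control (blue) and Dnmt1 KO (red), with circles for replicate 1 and squares for replicate 2. Irf3, Irf9 and Stat2 lie well above the effectors in every library, and of these 3 the genotypes are apart at Irf3 alone.

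*Ifih1* (ENSMUSG00000026896.15, GRCm39 chromosome 2, 62425714 to 62476607, minus strand) encodes MDA5, the cytoplasmic sensor of long double-stranded RNA. It had 4 and 9 reads in the control libraries and 3 and 1 in *Dnmt1* KO, or normalized counts of 3.58 and 9.19 against 2.96 and 1.09. Both *Dnmt1* KO values lay below both control values. The pooled reads, 13 against 4, gave a ratio of *Dnmt1* KO to control of 0.334 with an exact 95% counting interval of 0.0794 to 1.08, which includes no difference. With a mean under 10 the gene was not tested.

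*Mavs* (ENSMUSG00000037523.14, chromosome 2, 131075442 to 131096740, plus strand) encodes the mitochondrial adaptor downstream of MDA5 and RIG-I. Its normalized counts were 17.9 and 27.6 in control and 13.8 and 18.6 in *Dnmt1* KO. The genotypes overlapped. The log2 fold change was -0.45 (SE 0.41, adjusted p = 0.512). Its 95% interval ran from -1.32 to 0.42, or from 0.400-fold to 1.34-fold of control, and changes within these bounds were not excluded.

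*Irf3* (ENSMUSG00000003184.16, chromosome 7, 44647033 to 44652272, plus strand) encodes the constitutive factor that carries the signal from MAVS and TBK1 to the interferon genes. It had normalized counts of 132 and 137 in the control libraries and of 87.8 and 80.9 in *Dnmt1* KO. Each *Dnmt1* KO library lay below both control libraries, and the means, 135 ± 3.08 and 84.3 ± 4.90 (SD, n = 2), were further apart than the libraries of either genotype. *Irf3* fell by 0.67 on the log2 scale (SE 0.17, 95% interval -1.03 to -0.31, limma's adjusted p = 0.0129), a change of -37.1%. With edgeR's quasi-likelihood test the adjusted p was 0.0120, while DESeq2's Wald test, the authors' own, gave 0.159 at a log2 fold change of -0.67. The call was also lost without the variance trend (adjusted p = 0.0720), without control replicate 1 (0.0646) and without control replicate 2 (0.0897), at log2 fold changes between -0.69 and -0.65.

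**Figure D2:**
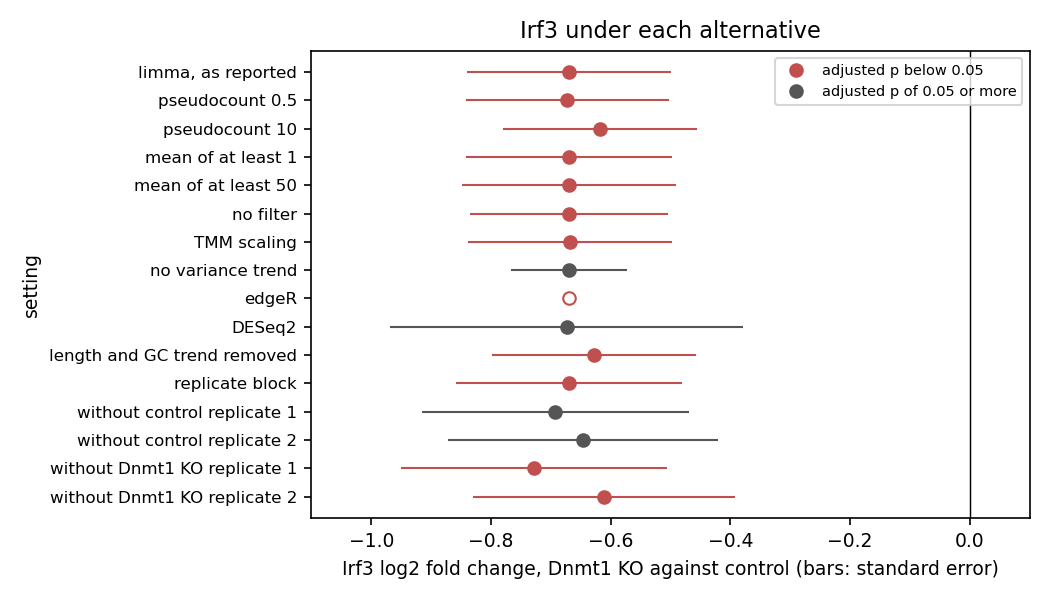
Log2 fold change of Irf3, Dnmt1 KO against control, as reported with limma and under each alternative, with bars for the standard error (none for edgeR) and red for an adjusted p below 0.05. All values lie between -0.73 and -0.61, and 4 of the 15 alternatives put the adjusted p at 0.05 or more.

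*Irf3* overlaps *Bcl2l12*, on the opposite strand, by 1104 bp and *Scaf1* by 22 bp, with mean normalized counts of 15.6 and 1614. Whether reads were counted by strand is not given in the sources used here, and the share of such reads in the *Irf3* count was not tested. The fall of *Irf3* went with lower summed markers of microglia, vascular and blood cells, radial glia and pallial neurons and with higher interneuron markers, and the part of these in it was not tested.

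*Irf7* (ENSMUSG00000025498.16, chromosome 7, 140842619 to 140846398, minus strand) encodes the inducible counterpart of *Irf3*, which rises in the feedback loop of type I interferon. It had 2 and 1 reads in control and 0 and 1 in *Dnmt1* KO. With 3 reads against 1 in all, both genotypes stayed at or under the 3 reads that a count of 0 allows, and no fold change is given.

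*Irf9* (ENSMUSG00000002325.16, chromosome 14, 55841028 to 55847812, plus strand) encodes the DNA-binding part of ISGF3. Its normalized counts were 68.0 and 84.7 in control and 73.0 and 84.1 in *Dnmt1* KO, with both *Dnmt1* KO values inside the control range. The log2 fold change was 0.045 (SE 0.21, adjusted p = 0.917), and its 95% interval ran from -0.40 to 0.49. It shares 282 bp with *Rnf31* on the same strand.

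*Stat2* (ENSMUSG00000040033.17, chromosome 10, 128106352 to 128128735, plus strand) encodes the transactivating part of ISGF3 and has a response element in its own promoter, shown above. Its normalized counts were 104 and 121 in control and 102 and 137 in *Dnmt1* KO, so that the *Dnmt1* KO libraries held both the lowest and the highest value. The log2 fold change was 0.068 (SE 0.18, adjusted p = 0.848), with a 95% interval from -0.32 to 0.46. A rise in *Stat2* beyond 1.38-fold thus lay outside the interval.

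*Isg15* (ENSMUSG00000035692.8, chromosome 4, 156283883 to 156285303, minus strand) encodes a ubiquitin-like modifier and is among the most strongly induced interferon targets. It had no read in control and 0 and 1 reads in *Dnmt1* KO. A count of 0 over both control libraries has an exact 95% interval of 0 to 0.236 CPM. The 1 read in *Dnmt1* KO corresponds to 0.0680 CPM with an exact 95% interval of 0.00172 to 0.379.

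*Bst2* (ENSMUSG00000046718.9, chromosome 8, 71986895 to 71990114, minus strand) encodes tetherin, which holds budding virions on the cell surface. Its reads were 0 and 1 in control and 2 and 1 in *Dnmt1* KO, or 0.0639 CPM (exact 95% interval 0.00162 to 0.356) against 0.204 CPM (0.0420 to 0.596). Although both normalized counts in *Dnmt1* KO, 1.97 and 1.09, exceeded those in control, 0 and 1.02, this rests on 4 reads in all, and no fold change is given.

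*Ifit1* (ENSMUSG00000034459.9, chromosome 19, 34618271 to 34632174, plus strand) encodes a protein that binds foreign 5′ RNA ends. It had 0 and 1 reads in control and none in *Dnmt1* KO. The control reads correspond to 0.0639 CPM (exact 95% interval 0.00162 to 0.356). The count of 0 over both *Dnmt1* KO libraries has an exact 95% interval of 0 to 0.251 CPM. The 3 effectors, whose promoters carry 7 of the 9 response-element pairs found in the members, therefore had 2 reads in control and 4 in *Dnmt1* KO together.

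Levels were also set side by side as normalized count per kilobase of transcript, over all libraries. *Irf3* stood highest at 49.1, near the median tested gene (44.7), followed by *Stat2* at 25.4 and *Irf9* at 23.6, whose libraries overlapped. *Mavs* was at 3.44, and 2.96% of the tested genes lay below it. The other 5 genes were between 0.0344 (*Ifit1*) and 1.13 (*Bst2*) and are not ordered, since each rested on 17 reads or fewer. Summed over these 5 genes, reads came to 18 in control and 9 in *Dnmt1* KO.

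The rest of the pathway was described by a list of 113 genes in 9 roles, which includes the 9 members. No read was found for 15 of them, 56 had reads but a mean under 10, and 42 were tested. Limma called 0 of the 42 higher and 3 lower, *Irf3*, *Rnaseh2a* and *Rnaseh2c*, or 3 of 42 against the 17.3% of all genes. At an unadjusted p below 0.05 there were 2 higher and 6 lower, beside 2115 higher and 2208 lower among all 14323 genes tested. The counts of calls were the same with edgeR, which had the same 3 genes, and DESeq2 called none, with 4 lower at an unadjusted p below 0.05 and no adjusted p for 59 of the 98 genes with a read. The median log2 fold change over the 42 was -0.068, beside -0.0033 over all genes tested.

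**Figure D3:**
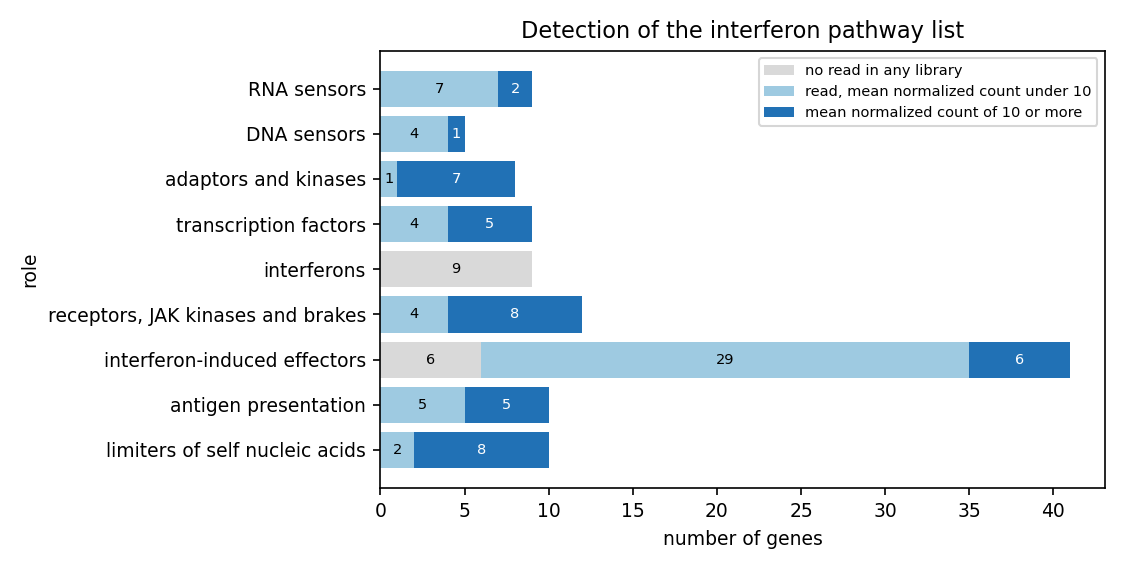
Number of genes of the interferon pathway list in each role by detection: no read in any library (grey), reads but a mean normalized count under 10 (light blue), and a mean of 10 or more (dark blue). Adaptors and kinases were mostly tested, 7 of 8, whereas 6 of 41 effectors and 0 of 9 interferons were.

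Interferon genes were not detected: *Ifnb1*, *Ifna1*, *Ifna2*, *Ifna4*, *Ifne*, *Ifnk*, *Ifng*, *Ifnl2* and *Ifnl3* had 0 reads in all 4 libraries, which allows each up to 0.358 to 0.430 CPM in a library. The interferon alpha genes are near-identical copies, among which counting can split reads.

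Of 9 RNA sensors, 7 were under a mean of 10, and none of these had more than 9 reads in a library. *Rigi*, the sensor of short 5′-triphosphate RNA, had normalized counts of 8.05 and 6.13 in control and 2.96 and 5.46 in *Dnmt1* KO. *Trim25*, a ubiquitin ligase that assists RIG-I and had the highest mean count of the group over the 4 libraries, just above *Eif2ak2*, had 25.1 and 19.4 against 12.8 and 24.04, with a log2 fold change of -0.31 (SE 0.42, adjusted p = 0.673). The whole group summed to 77.9 and 63.3 in control and to 30.6 and 59.0 in *Dnmt1* KO. Of 5 DNA sensors *Aim2* alone was tested, at 67.1 and 33.7 against 49.3 and 29.5, and it overlaps the neural adhesion gene *Cadm3* by 17008 bp. *Cgas*, which makes the second messenger cGAMP from cytoplasmic DNA, had 2 and 1 reads in control and 4 and 3 in *Dnmt1* KO, a ratio of 2.54 with an exact 95% counting interval of 0.579 to 15.2, which includes no difference. It was singled out after its values were seen.

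Adaptors and kinases were tested for 7 of 8 genes, of which limma, edgeR and DESeq2 called 0, with 0 at an unadjusted p below 0.05. *Traf3*, the highest of the 8, had normalized counts of 523 and 431 in control and 470 and 448 in *Dnmt1* KO (log2 fold change -0.050, SE 0.10, adjusted p = 0.791), and *Tbk1*, the kinase of IRF3, had 217 and 251 against 239 and 241 (0.042, SE 0.12, adjusted p = 0.862). Log2 fold changes of the 7 tested ranged from -0.45 to 0.17. The summed normalized count was 1056 and 1042 in control and 1053 and 1020 in *Dnmt1* KO. *Ikbke*, under the mean of 10 and singled out after its values were seen, had 2 and 2 reads in control and 7 and 8 in *Dnmt1* KO. Its ratio was 4.08, with an exact counting interval of 1.30 to 16.9, which lies above 1. At a mean of at least 1, limma had 1 of the 8 genes higher at an unadjusted p below 0.05 and called 0. Elsewhere on the list, such intervals lay below 1 for *Irf5*, *Socs1*, *Il10rb*, *Irgm1*, *Igtp*, *Nlrc5* and *Apobec3*.

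Receptor chains, JAK kinases and the brakes on their signal were tested for 8 of 12 genes, with 0 called by limma, edgeR or DESeq2. At an unadjusted p below 0.05, beside 4323 of all 14323 tested genes, limma had 3 of these 8. The highest, *Jak2*, had 630 and 639 in control and 681 and 734 in *Dnmt1* KO (log2 fold change 0.16, SE 0.079, adjusted p = 0.204). Both chains of the type I receptor, singled out after their values were seen, had higher counts in each *Dnmt1* KO library than in either control library. Such separation was not particular to them. Of the 42 tested pathway genes, 11 were higher in both *Dnmt1* KO libraries than in either control library, and 10 were lower. The share over all tested genes was not counted. *Ifnar1* was at 475 and 475 against 538 and 551 (0.20, SE 0.085, adjusted p = 0.134), and *Ifnar2* was at 66.2 and 65.3 against 96.7 and 86.3 (0.47, SE 0.20, adjusted p = 0.125). These are the 2 genes of the list that were higher at an unadjusted p below 0.05. *Ifngr1*, a chain of the interferon gamma receptor, was at 26.0 and 47.0 against 14.8 and 19.7 (-0.99, SE 0.38, adjusted p = 0.0890).

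Among the 41 interferon-induced effectors, 6 had no read (*Oas1a*, *Oas2*, *Rsad2*, *Gbp2*, *Cxcl10* and *Ccl5*), 29 had reads but a mean under 10, and 6 were tested. No effector was called by limma or edgeR. At an unadjusted p below 0.05, beside 4323 of all 14323 tested genes, limma had 0 effectors higher and 1 lower. The 35 effectors under the mean of 10 summed to 59.1 and 52.1 in control and 37.5 and 45.9 in *Dnmt1* KO, that is 117 against 80 reads in all, and both *Dnmt1* KO sums lay below both control sums. The microglia markers given above were lower in the same libraries, and their part in this was not tested. All 41 effectors together summed to 719 and 724 in control and 793 and 711 in *Dnmt1* KO, with overlapping genotypes. *Dtx3l*, a ubiquitin ligase singled out after its values were seen, was at 42.1 and 17.4 against 14.8 and 2.19 (-1.99, SE 0.66, adjusted p = 0.0514). Under 14 alternatives its adjusted p ran from 1.82e-05 (without *Dnmt1* KO replicate 1, at -3.14) to 0.347 (without control replicate 1, at -1.37), and it was called lower under 6 of them. Promoters with the response-element pair made up 48.6% of the 37 effector promoters in the RefSeq table and 26.9% of the 108 of the whole list, beside 2.63% of the promoters of tested genes.

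**Figure D4:**
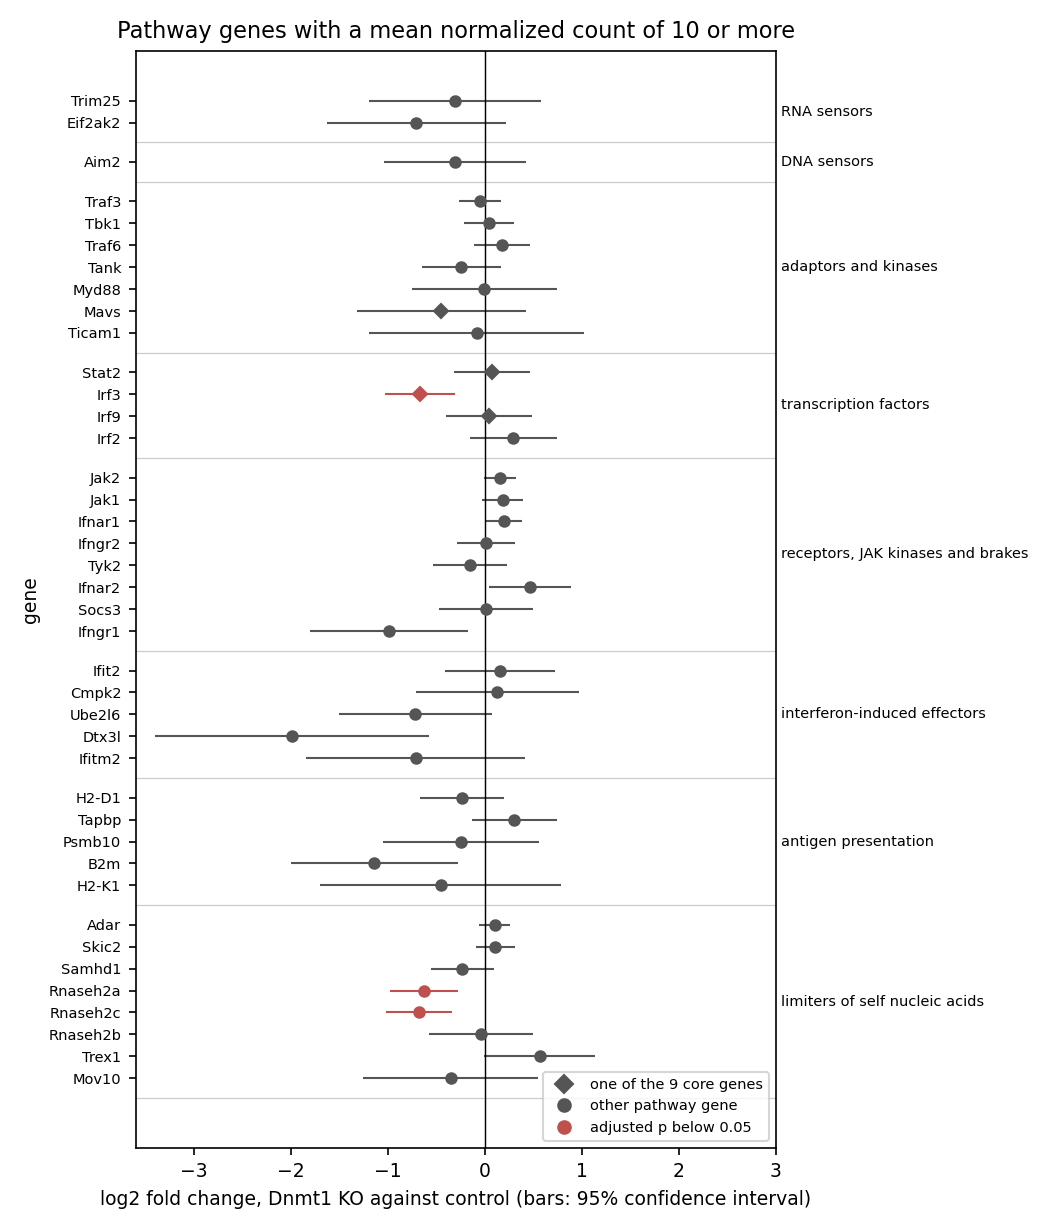
Log2 fold change, Dnmt1 KO against control, with 95% confidence interval, of tested pathway genes, by role and, within a role, from the highest to the lowest mean count. Diamonds are the core genes, red marks an adjusted p below 0.05, and the 3 red genes, Irf3, Rnaseh2a and Rnaseh2c, all lie left of 0.

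Antigen presentation genes, which interferon also induces, were tested for 5 of 10 genes with 0 called by limma, edgeR or DESeq2. *H2-D1*, a class I heavy chain and the highest of them, was at 85.9 and 98.0 against 68.1 and 88.5 (-0.24, SE 0.20, adjusted p = 0.477). Class I genes are near-identical copies, and their counts are uncertain. *B2m*, the invariant light chain, singled out after its values were seen, was at 27.7 and 31.6 against 16.8 and 9.83 (-1.14, SE 0.40, adjusted p = 0.0655). It was called lower under 2 of 14 alternatives, without *Dnmt1* KO replicate 1 (adjusted p = 0.0217) and with a replicate block, and its adjusted p reached 0.403 with DESeq2.

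Limiters of self nucleic acids, among them enzymes whose loss sets off interferon in the absence of infection, were tested for 8 of 10 genes. Of these 8, 2 fell, beside 8.99% of all tested genes. With so few genes the count is no result about the list. Both encode subunits of ribonuclease H2, which removes RNA from DNA hybrids. *Rnaseh2a*, the catalytic subunit, had normalized counts of 157 and 161 in control and 115 and 91.8 in *Dnmt1* KO, and it fell by 0.63 on the log2 scale (SE 0.17, limma's adjusted p = 0.0161). *Rnaseh2c* had 148 and 165 against 101 and 94.0 and fell by 0.68 (SE 0.16, limma's adjusted p = 0.00836). The remaining subunit, *Rnaseh2b*, was at 75.2 and 50.02 against 66.1 and 53.5 (-0.044, SE 0.25, adjusted p = 0.934).

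Both calls were lost with DESeq2 (adjusted p = 0.168 and 0.110) and without control replicate 2 (0.0979 and 0.0922). That of *Rnaseh2a* was also lost without control replicate 1 (0.0752) or *Dnmt1* KO replicate 2 (0.105, at -0.46), and that of *Rnaseh2c* with length and GC trends removed (0.0553, at -0.48). Each gene overlaps another on the opposite strand, *Prdx2* and *Kat5*. *Adar*, the highest of the group, which edits double-stranded RNA and so hides it from MDA5, was at 729 and 767 against 785 and 817 (0.099, SE 0.075, adjusted p = 0.412). The part of the lower non-interneuron markers in these changes was not tested.

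**Figure D5:**
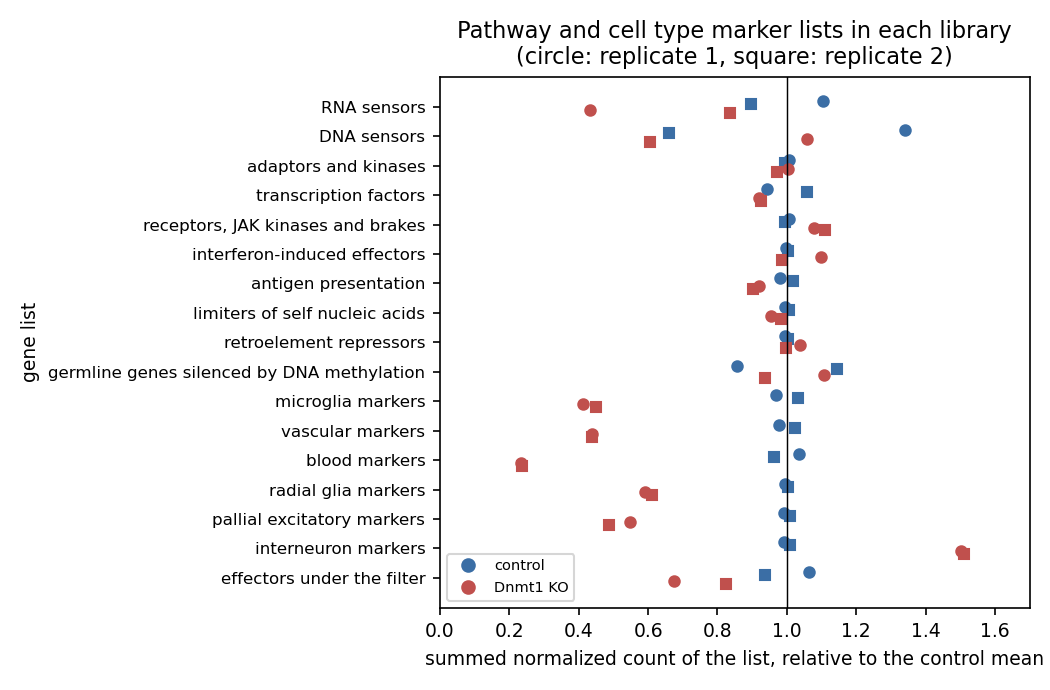
Summed normalized count of each pathway, companion and marker list in each library, relative to the control mean of that list, with control in blue and Dnmt1 KO in red. Adaptors, factors, receptors and limiters stay within 0.92 to 1.11 of the control mean in Dnmt1 KO, while the microglia, vascular and blood lists stand between 0.23 and 0.45. The mean of Dnmt1 KO is 0.635 of control for RNA sensors, 0.832 for DNA sensors and 0.910 for antigen presentation. It is 1.04 for all effectors and 0.750 for effectors under the filter.

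Companion lists gave the state of genes that hold retroelements silent and of germline genes that DNA methylation silences. All 14 retroelement repressors were tested, and 2 rose and 1 fell, beside 17.3% called among all genes, so that the count is no result about the list. *Tasor*, the scaffold of the HUSH complex, was at 519 and 596 in control and 752 and 707 in *Dnmt1* KO (0.39, SE 0.088, limma's adjusted p = 0.00613), and *Atf7ip*, a partner of the methyltransferase SETDB1, was at 1695 and 1734 against 2044 and 1879 (0.19, SE 0.060, adjusted p = 0.0381). *Hells*, a chromatin remodeller that aids DNA methylation, was at 250 and 247 against 159 and 167 and fell by 0.61 (SE 0.13, limma's adjusted p = 0.00357). Summed radial glia markers were lower in the same libraries, at 0.601 of control, and interneuron markers higher, at 1.51, and their part in these changes was not tested.

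The rise of *Tasor* was 0.12 (adjusted p = 0.379) and that of *Atf7ip* 0.16 (adjusted p = 0.0828) once the trends over transcript length and GC were removed. Without control replicate 1 the adjusted p was 0.0629 for *Tasor* (at 0.29) and 0.134 for *Atf7ip*, which was also lost without control replicate 2 (0.0800) or *Dnmt1* KO replicate 1 (0.314), with no filter on low counts (0.0759) and with DESeq2 (0.125). *Hells* missed the threshold with DESeq2 (0.0518).

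Of 18 germline genes, 10 had no read, among them *Mael*, *Sycp1*, *Sycp3* and *Tex19.1*, and 7 had reads but a mean under 10. *Brdt* alone was tested, at 15.2 and 18.4 against 23.7 and 15.3 (0.18, SE 0.42, adjusted p = 0.821), and the list summed to 26.0 and 34.7 in control and 33.5 and 28.4 in *Dnmt1* KO. Neither limma nor edgeR called *Brdt*, with 0 at an unadjusted p below 0.05, and DESeq2 gave no adjusted p for any gene of the list.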

How the data were processed

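Total RNA of sorted tdTomato-positive cells was sequenced in 4 libraries (stranded, rRNA-depleted). The authors used STAR on GRCm39 and Salmon, and deposited a normalized signal, gene counts divided by size factors (DESeq2 1.32.0). All 89965 values above 0 (100%) were whole multiples of 1 unit per library, to within 0.0001 of a read. All 4 sample columns were used. Groups follow the labels.

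Genes averaging 10 or more were tested with limma 3.58.1 in R 4.3.3 on log2(value + 1) with a variance trend, genotype only. Alternatives were pseudocounts of 0.5 and 10, means of at least 1 or 50 or no filter, TMM scaling, no variance trend, edgeR 4.0.16, DESeq2 1.42.0, length and GC trends removed (splines of 5 df), a replicate block, and leaving out each library. The fit was tested on simulated data. Positions, and lengths of the transcript with the longest coding sequence, came from GENCODE for GRCm39 (14285 of 14323 tested genes).

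Members and lists were chosen with earlier results of these data known. Named genes are the members, called genes of the lists, and the highest gene per role. Others were named after their values were seen. Single values of some listed genes are not reported here, though the list counts include them.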

Additional observations from a re-analysis of the deposited data

How the results depend on the processing

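No pathway gene was called higher as reported or under any of the 15 alternatives. *Irf3* stayed called under 11 of them. Without the variance trend limma called 0 genes of all tested (3339 at an unadjusted p below 0.05), 0 of the members, 0 of the pathway list and 0 of the companion lists. DESeq2 called 1176 of all genes, 0 members, 0 pathway genes and 1 companion gene. Under these settings the *Irf3* log2 fold change was -0.67 and -0.67. Removing length and GC trends left 1 companion gene called.

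With each library left out, 1525 to 2205 of all genes were called, 0 to 1 members, 0 to 5 pathway genes and 1 to 4 companion genes, and the lone library was taken to vary like the others. *Irf3* ranged from -0.73 to -0.61, *Irf9* from -0.11 to 0.20 and *Stat2* from -0.14 to 0.28. The last pair turned negative without control replicate 1 or *Dnmt1* KO replicate 2. Uncalled *Trim25* (-0.74 to 0.12), *Aim2* (-0.80 to 0.18) and *Traf3* (-0.19 to 0.090) also changed sign. The cause was not tested.

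Libraries of the same number did not deviate together (r = -0.085 across 14323 genes, which are not independent). With the number as a replicate block, 5 pathway genes were called, all lower, which added *Dtx3l* (adjusted p = 0.00186) and *B2m* (0.0436) to the 3 reported, as leaving out *Dnmt1* KO replicate 1 also did, and *Irf3* stayed at -0.67. Depth limits the effectors, where a library's count of 0 allows 3 reads.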
